A study of Mus musculus with 6 samples.

Results

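The expression of 10 genes of retinoic acid metabolism and reception was examined in the embryonic mouse lacrimal gland. The genes were chosen by symbol for their function, and were Aldh1a1, Aldh1a2 and Aldh1a3, which make retinoic acid, Dhrs3, which acts on its precursor, Cyp26a1 and Cyp26b1, which break it down, Crabp2, which carries it, and its receptors Rara, Rarb and Rarg. All 10 were among the 23420 gene symbols of the count tables, and 8 of the 10 passed the filter on low counts. The exceptions were Cyp26a1 and Cyp26b1.

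The samples were lacrimal gland epithelium of E14.5 embryos on a mixed background, cut from frozen sections by laser capture and sequenced as RNA after amplification. Control embryos (3 samples) are named Le-Cre in the study's account of the sequencing, and the sample titles say only WT. Le-Cre animals heterozygous for Pea3, Erm flox and Er81 flox also served as controls in the study. Whether any of these 3 samples had that genotype is not given. Pea3 TKO embryos (3 samples) carried Le-Cre together with Pea3-/-, with both Erm alleles floxed (Erm fl/fl) and both Er81 alleles floxed (Er81 fl/fl), where Pea3, Erm and Er81 are Etv4, Etv5 and Etv1, the ETS transcription factors that act downstream of FGF signaling. Le-Cre is active in the lens and ocular surface ectoderm, so Erm and Er81 were deleted in epithelium of that origin, whereas Pea3 was absent from the whole embryo. The comparison of the 2 groups asks which transcripts of the bud depend on these factors. Nothing in the labels ties the samples to separate embryos, and the p-values therefore measure the spread between these 6 samples, which may be technical.

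Total counts ran from 14194775 to 17860140 per sample, and 3 counts corresponded to between 0.168 and 0.211 CPM. CPM is the count as a share of the TMM-scaled library times 1000000, and is given as the mean ± SD of n = 3 samples. In total 3268 of 13087 tested genes passed an adjusted p of 0.05 in edgeR's quasi-likelihood test. The targeted genes agreed in direction with the labels, with Etv4 between 129.4 and 184.2 CPM in control and between 10.9 and 28.4 in Pea3 TKO, Etv5 between 961.4 and 1202 against 88.2 to 177.0, and Etv1 between 28.7 and 33.9 against 9.21 to 9.98. Lacrimal bud markers summed to between 1939 and 2076 CPM in control and between 454.3 and 540.4 in Pea3 TKO. Libraries also stood apart in ways the groups do not explain. Summed Y-linked reads were between 135.7 and 174.7 CPM in every control and 139.0 in Pea3 TKO replicate 3, but 0.445 and 0.210 in Pea3 TKO replicates 1 and 2. Xist was at 106.4 and 32.5 CPM in those 2 libraries and at 0.0587 CPM in Pea3 TKO replicate 3. The same 2 libraries held the most fibrillar collagen of connective tissue, with Col3a1 at 119.5 and 213.3 CPM against 2.0 in Pea3 TKO replicate 3 and 2.99 to 53.3 in control. In these 2 libraries embryo sex and genotype cannot be told apart, so each called member is also given with the covariate for Y-linked reads and in the 4 libraries with Y-linked reads alone.

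Retinoic acid is a small lipid hormone made from vitamin A. Retinol enters the cell, is oxidised reversibly to retinaldehyde and then irreversibly to retinoic acid by the Aldh1a enzymes, and Cyp26 enzymes oxidise the product for removal. Crabp2 delivers retinoic acid to nuclear receptors, which pair with retinoid X receptors on direct repeats in DNA and switch target genes on. In the developing eye, the acid made by retina and ocular ectoderm acts on the periocular mesenchyme, and vitamin A is known to keep the ocular surface from keratinizing.

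Direct repeats bound by such receptor pairs lie close to the start of some of these genes. Promoter windows of 250 bases before to 50 bases after a start were held for 8 of the 10 genes (15 windows, RefSeq, GRCm38.p6), and named only are Aldh1a3 and Crabp2. The motif searched was DR5, a pair of nuclear receptor half-sites in the same orientation 5 bases apart, on both strands. It was found in 0.0974% of all 32851 promoter windows of this length, and among the 15 in the window of Rarb, 53 bases before the start, and in that of Cyp26a1, 32 bases before the start on the reverse strand. The same repeats with spacings of 2 or 1 bases (0.268% and 0.222% of all windows) were in none of the 15, and neither was the ETS motif CCGGAAG (8.86% of all windows). AGGAAG, which shares the letters GGAAG with CCGGAAG, was in windows of Cyp26b1, Rara and Rarb (35.4% of all windows). AGGTCA was in windows of Rara and Rarg (16.3% of all windows). No match to AGGAAG or AGGTCA overlapped either DR5. The 250 bases before the start are shown for both DR5 genes, chr14:16575477-16575726 on the minus strand and chr19:37697558-37697807 on the plus strand, with the DR5 in capitals. For comparison they are shown for Aldh1a1 (chr19:20601718-20601967, plus strand, the downstream of its 2 windows) and Dhrs3 (chr4:144892577-144892826, plus strand, the first of its 3), genes whose transcripts rose and whose windows hold no match to any of these motifs.
Rarb: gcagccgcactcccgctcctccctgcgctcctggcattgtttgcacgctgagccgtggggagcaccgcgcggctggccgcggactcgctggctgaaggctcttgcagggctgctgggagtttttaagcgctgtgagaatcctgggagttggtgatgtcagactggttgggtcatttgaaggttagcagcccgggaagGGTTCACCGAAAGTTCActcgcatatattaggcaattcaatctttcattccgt
Cyp26a1: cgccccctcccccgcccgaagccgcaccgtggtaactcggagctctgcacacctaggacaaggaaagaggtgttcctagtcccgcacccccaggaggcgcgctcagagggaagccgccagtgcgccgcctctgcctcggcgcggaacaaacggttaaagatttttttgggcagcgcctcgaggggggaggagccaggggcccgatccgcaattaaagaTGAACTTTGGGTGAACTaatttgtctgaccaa
Aldh1a1: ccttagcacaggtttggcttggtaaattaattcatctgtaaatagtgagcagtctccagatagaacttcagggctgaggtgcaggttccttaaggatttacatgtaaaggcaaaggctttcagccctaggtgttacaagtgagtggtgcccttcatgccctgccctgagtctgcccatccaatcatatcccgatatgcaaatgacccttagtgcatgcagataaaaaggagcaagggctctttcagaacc
Dhrs3: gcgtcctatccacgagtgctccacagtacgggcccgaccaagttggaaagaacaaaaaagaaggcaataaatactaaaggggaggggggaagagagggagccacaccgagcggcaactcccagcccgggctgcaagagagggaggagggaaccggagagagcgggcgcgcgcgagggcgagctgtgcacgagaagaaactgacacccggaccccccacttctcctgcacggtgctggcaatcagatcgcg
A match is a description of these letters and says nothing of binding in the bud.

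In Pea3 TKO, 3 of the 8 tested genes rose, namely Aldh1a1, Crabp2 and Dhrs3, and none fell at an adjusted p of 0.05 in edgeR's quasi-likelihood test. Of the 5 others, Rarg alone had an unadjusted p under 0.05. The share of all tested genes called was 25.0%, with 13.6% increased and 11.3% decreased. The 2 of these genes that are left out of the test, Cyp26a1 and Cyp26b1, are given as counts. The 3 controls lay below the 3 Pea3 TKO samples for 4 of the 8 tested genes (the 3 that rose and Rarg) and above them for none, where 43.9% of all tested genes showed no overlap, 22.5% higher and 21.3% lower. The median log2 fold change was 0.24 over the 8 and 0.01 over all tested genes.

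**Figure D1:**
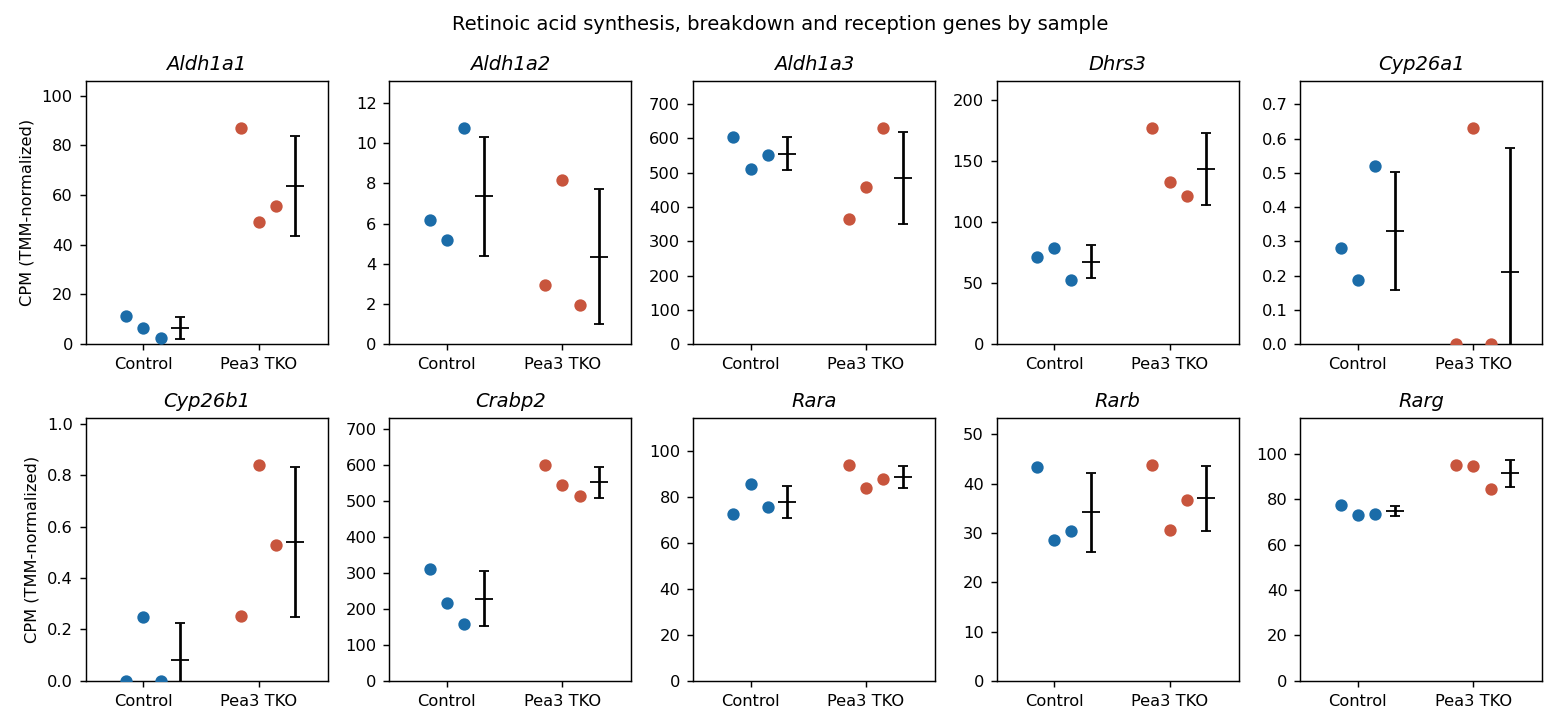
CPM after TMM scaling (vertical axes, each from 0) of the 10 genes in the 3 control (blue) and 3 Pea3 TKO (red) samples, in order of replicate number, with mean and SD as bars. Aldh1a1, Dhrs3, Crabp2, Rarg and, at a few counts, Cyp26b1 show no overlap between the groups, and Cyp26a1 and Cyp26b1 stay below 1 CPM in every sample.

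Aldh1a1, a retinaldehyde dehydrogenase of the embryonic dorsal retina and of adult surface epithelia (chromosome 19, 20492715 to 20643465, plus strand, GRCm38), rose the most. Its level was 11.2, 6.36 and 2.34 CPM in control replicates 1 to 3 and 86.7, 49.3 and 55.4 CPM in Pea3 TKO replicates 1 to 3. Every Pea3 TKO sample was above every control sample, and the controls themselves spread widely. In bulk samples fewer cells of a type and less RNA per cell cannot be told apart, here and for every gene. The means were 6.64 ± 4.45 and 63.8 ± 20.1 CPM, a log2 fold change of 3.25 (SE 0.46, 95% interval 2.22 to 4.29, edgeR adjusted p = 0.0012), or 9.54-fold (95% interval 4.67 to 19.5). Without control replicate 1, the highest control, the log2 fold change was 3.87 (edgeR adjusted p = 0.00016). It was 3.09 with the Y-linked covariate (edgeR adjusted p = 0.019) and 3.07 in the 4 libraries with Y-linked reads (edgeR adjusted p = 0.049), where Pea3 TKO replicate 3 stood alone and was assumed to vary like the controls.

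Aldh1a3 made up most of the Aldh1a family in every sample. This enzyme of the ventral retina and ocular ectoderm (chromosome 7, 66390890 to 66427517, minus strand) was at 604.1, 509.2 and 550.8 CPM in control and 365.1, 457.2 and 628.5 CPM in Pea3 TKO. The groups overlapped, since Pea3 TKO replicate 3 was the highest of the 6 samples and the other two were the lowest. The means were 554.7 ± 47.6 and 483.6 ± 134 CPM (log2 fold change -0.20, SE 0.18, 95% interval -0.60 to 0.21, edgeR adjusted p = 0.47). Its direction depended on the 2 libraries without Y-linked reads, and the log2 fold change was 0.19 both with the Y-linked covariate and without those libraries (edgeR adjusted p = 0.61 and 0.45).

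Aldh1a2, the main retinoic acid enzyme of embryonic mesoderm (chromosome 9, 71215789 to 71296243, plus strand), was low throughout. It was at 6.20, 5.17 and 10.7 CPM in control and 2.92, 8.18 and 1.94 CPM in Pea3 TKO, and the groups overlapped. The means were 7.37 ± 2.96 and 4.35 ± 3.36 CPM (log2 fold change -0.76, SE 0.56, 95% interval -2.02 to 0.49, edgeR adjusted p = 0.36). The log2 fold change was -1.60 without Pea3 TKO replicate 2 (edgeR adjusted p = 0.072), -1.98 with the Y-linked covariate (edgeR adjusted p = 0.21) and -1.91 in the libraries with Y-linked reads alone (edgeR adjusted p = 0.16). Within each group the highest sample, control replicate 3 and Pea3 TKO replicate 2, was also the one with the most Col3a1, and whether mesenchyme had a part in the Aldh1a2 level was not tested.

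Levels of different genes were compared per length, as CPM per kilobase of exon (RPKM), to see how the 3 enzymes share the family total. Aldh1a3 took 96.3%, 96.9% and 95.8% of the summed Aldh1a RPKM in control and 80.7%, 87.9% and 91.9% in Pea3 TKO. Aldh1a1 took 1.67%, 1.13% and 0.381% in control and 17.9%, 8.87% and 7.57% in Pea3 TKO. Both shares separated the groups, with Aldh1a3 lower and Aldh1a1 higher in each Pea3 TKO sample. The mean share of Aldh1a1 was 1.06 ± 0.65% in control and 11.5 ± 5.65% in Pea3 TKO, and that of Aldh1a3 96.3 ± 0.52% and 86.8 ± 5.63%. Each exact two-sided permutation test gave p = 0.10, the smallest that 3 samples against 3 allow. The Aldh1a2 share was 2.61 ± 1.04% and 1.70 ± 1.36% (exact permutation p = 0.40), and the latter was 0.948% without Pea3 TKO replicate 2. The family total was 124.7 ± 11.0 RPKM in control and 119.6 ± 25.8 RPKM in Pea3 TKO, so the total moved by less than its spread.

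**Figure D2:**
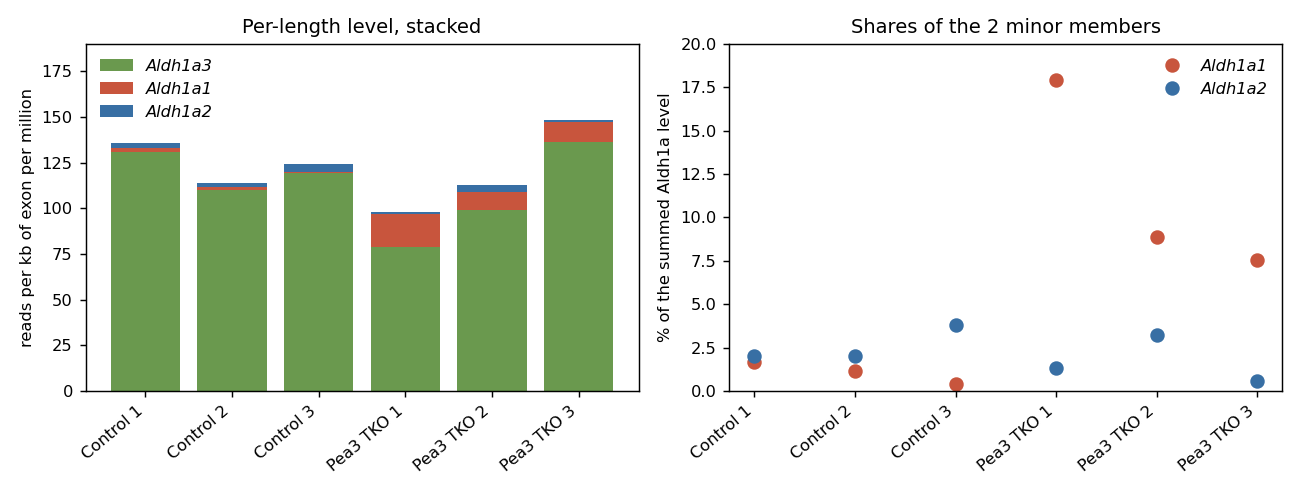
Left, RPKM of Aldh1a3, Aldh1a1 and Aldh1a2 stacked in each of the 6 samples. Right, Aldh1a1 and Aldh1a2 as a percent of the summed RPKM of the 3 enzymes, where the Aldh1a1 points lie between 0.381% and 1.67% in control and between 7.57% and 17.9% in Pea3 TKO.

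Dhrs3, a reductase that turns retinaldehyde back into retinol and so limits retinoic acid synthesis, also rose (chromosome 4, 144892827 to 144928209, plus strand). It was at 71.4, 78.7 and 52.7 CPM in control and 176.5, 133.0 and 121.0 CPM in Pea3 TKO. The lowest Pea3 TKO sample, replicate 3, lay above the highest control. The means were 67.6 ± 13.4 and 143.5 ± 29.2 CPM, a log2 fold change of 1.09 (SE 0.19, 95% interval 0.67 to 1.51, edgeR adjusted p = 0.0034), or 2.12-fold (95% interval 1.59 to 2.84). The call was lost with the Y-linked covariate (log2 fold change 0.84, edgeR adjusted p = 0.091) and in the libraries with Y-linked reads alone (0.85, edgeR adjusted p = 0.097).

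The enzymes that remove retinoic acid were close to the limit of detection in both groups. Cyp26a1, itself a classical target of retinoic acid (chromosome 19, 37697798 to 37701536, plus strand), had 5, 3 and 8 counts in control and 0, 9 and 0 counts in Pea3 TKO. Cyp26b1 (chromosome 6, 84571414 to 84593908, minus strand) had 0, 4 and 0 counts in control and 4, 12 and 9 in Pea3 TKO. No sample reached 1 CPM for either gene, and neither entered the test. The Cyp26a1 groups overlapped, whereas the Cyp26b1 groups did not, with 0, 0.249 and 0 CPM in control and 0.254, 0.839 and 0.529 CPM in Pea3 TKO, but control replicate 2 and Pea3 TKO replicate 1 had the same 4 counts. The promoter of Cyp26a1 is one of the pair shown with a DR5 near the start.

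Crabp2, the binding protein that carries retinoic acid to its receptors (chromosome 3, 87948666 to 87953376, plus strand), rose in Pea3 TKO. It was at 309.4, 216.6 and 158.1 CPM in control and 598.6, 542.7 and 512.5 CPM in Pea3 TKO. The groups did not overlap, and the controls varied more among themselves than the Pea3 TKO samples did. The means were 228 ± 76.3 and 551.3 ± 43.7 CPM, a log2 fold change of 1.27 (SE 0.21, 95% interval 0.80 to 1.74, edgeR adjusted p = 0.0027), or 2.42-fold (95% interval 1.74 to 3.35). The value was close to this with the Y-linked covariate, 1.18, and in the libraries with Y-linked reads alone, also 1.18, but the call was lost in both (edgeR adjusted p = 0.052 and 0.085).

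The 3 receptors were present in both groups and none passed the threshold. Rarg, the receptor best known from skin and surface epithelia (chromosome 15, 102234938 to 102257517, minus strand), was at 77.3, 73.2 and 73.6 CPM in control and 94.9, 94.5 and 84.6 CPM in Pea3 TKO. The groups did not overlap, and the log2 fold change was 0.29 (SE 0.12, 95% interval 0.02 to 0.56, unadjusted p = 0.036 and edgeR adjusted p = 0.11). Rara, the most widely expressed of the receptors (chromosome 11, 98927818 to 98974942, plus strand), was at 72.3, 85.6 and 75.3 CPM in control and 93.7, 84.0 and 87.7 CPM in Pea3 TKO. Control replicate 2 lay within the Pea3 TKO range, and the log2 fold change was 0.19 (SE 0.13, 95% interval -0.09 to 0.47, edgeR adjusted p = 0.31).

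Rarb, a receptor gene that is induced by retinoic acid through the DR5 shown for it (chromosome 14, 16430839 to 16819156, minus strand), was at 43.5, 28.7 and 30.4 CPM in control and 43.8, 30.6 and 36.7 CPM in Pea3 TKO. The ranges nearly coincided. The log2 fold change was 0.11 (SE 0.21, 95% interval -0.36 to 0.59, edgeR adjusted p = 0.73), and it was -0.02 without Pea3 TKO replicate 1. Exons of Rarb share 1793 bases with Top2b on the other strand, which was at 231.8 ± 32.3 CPM in control and 211.1 ± 17.7 in Pea3 TKO. Whether the counting used strand is not given in the sources used here, so reads from the shared stretch cannot be told apart.

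Within the receptor family, Rara took 42.6 ± 3.94% of the summed RPKM in control and 41.6 ± 1.09% in Pea3 TKO, Rarg 41.9 ± 1.12% and 44.0 ± 2.55%, and Rarb 15.5 ± 3.32% and 14.4 ± 1.88%. None of these shares differed beyond the spread (exact permutation p = 0.80, 0.30 and 0.70). The family total was 41.8 ± 1.37 RPKM in control and 48.7 ± 2.88 in Pea3 TKO, and every Pea3 TKO total (46.9 to 52.0) lay above every control total (40.3 to 42.9).

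Ordered by RPKM in control, Crabp2 stood first at 172.5 ± 57.7, followed by Aldh1a3 at 120.1 ± 10.3. Their sample ranges met, from 119.6 to 234.1 for Crabp2 and from 110.3 to 130.9 for Aldh1a3, so this order is not beyond the spread. Dhrs3 (23.1 ± 4.59), Rara (17.8 ± 1.6) and Rarg (17.5 ± 0.53) formed a middle group with overlapping ranges. Rarb (6.49 ± 1.54), Aldh1a2 (3.25 ± 1.31), Aldh1a1 (1.34 ± 0.90) and Cyp26a1 (0.166 ± 0.0866) followed, and Cyp26b1 was last. The highest control sample of Aldh1a1 (2.27) and the lowest of Aldh1a2 (2.28) nearly met. In Pea3 TKO, Crabp2 (417.0 ± 33.0) stood apart from Aldh1a3 (104.7 ± 29.0), and Dhrs3 (49.0 ± 9.99) stood apart from Rarg (21.4 ± 1.37) and Rara (20.3 ± 1.12), which overlapped each other. Aldh1a1, at 12.9 ± 4.07 RPKM, moved above Rarb (7.03 ± 1.25) and Aldh1a2 (1.92 ± 1.48) without overlap with either. Among the 12315 tested genes with a length, Aldh1a1 went from the 21.9th to the 64.8th percentile, Dhrs3 from the 77.3rd to the 89.9th and Crabp2 from the 98.1st to the 99.6th.

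Around these genes, 41 further genes of retinol uptake, oxidation, binding and reception were in the files, and 26 of them were tested. Of the 26, 7 rose, 1 fell and 18 did not pass the test, with a median log2 fold change of 0.28, where 25.0% of all tested genes were called (13.6% increased and 11.3% decreased). Stra6, the membrane receptor that takes up retinol, was the one that fell. It was at 209.5, 162.1 and 296.4 CPM in control and 30.9, 65.3 and 49.5 CPM in Pea3 TKO, with every Pea3 TKO sample below every control (log2 fold change -2.20, SE 0.28, edgeR adjusted p = 0.00078). Rbp4, the plasma carrier of retinol, had 0 to 2 counts in every sample.

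Of 10 tested retinol and retinaldehyde oxidoreductases other than Dhrs3, 3 rose, against 13.6% of all tested genes. Rdh10, the dehydrogenase that supplies retinaldehyde in the embryo, went from 41.7 ± 4.39 to 81.9 ± 15.3 CPM (log2 fold change 0.97, SE 0.17, edgeR adjusted p = 0.0033). Adh7, an alcohol dehydrogenase of stratified epithelia that can oxidise retinol, was at 19.9, 24.3 and 16.3 CPM in control and 166.4, 152.3 and 218.3 CPM in Pea3 TKO (log2 fold change 3.15, SE 0.20, edgeR adjusted p = 1.7e-05). Adh1, a broader alcohol dehydrogenase, was at 159.1, 58.0 and 20.5 CPM in control and 795.3, 685.8 and 362.4 CPM in Pea3 TKO (log2 fold change 2.95, SE 0.61, edgeR adjusted p = 0.0074), and its log2 fold change was 3.97 without control replicate 1. Genes on the other strand overlap exons of both Adh1 and Adh7. Aldh1a7, a relative of Aldh1a1 that lies next to it on chromosome 19, was at 34.2, 20.8 and 8.78 CPM in control and 118.4, 81.5 and 108.0 CPM in Pea3 TKO (log2 fold change 2.27, SE 0.39, edgeR adjusted p = 0.0032). The groups did not overlap for any of these 4 genes. Only 1 of the 2259 stretches of 100 bases, the read length, in the longest Aldh1a1 coding transcript occurs in that of Aldh1a7.

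Fabp5, a fatty acid binding protein of keratinocytes that also binds retinoic acid, rose from 345.6 ± 62.6 to 846.9 ± 323 CPM (log2 fold change 1.29, SE 0.25, edgeR adjusted p = 0.0052). Crabp1, the other cellular retinoic acid binding protein, went from 7.12 ± 0.96 to 12.4 ± 3.12 CPM and did not pass the test (edgeR adjusted p = 0.077). The retinoid X receptors did not pass it either, with log2 fold changes of 0.24 for Rxra (edgeR adjusted p = 0.27) and 0.02 for Rxrb (edgeR adjusted p = 0.94), and Rxrg was too low to test, with at most 9 counts in a sample. Of 7 receptor coregulators, the coactivator Ncoa2 (log2 fold change 0.68, edgeR adjusted p = 0.028) and the corepressor Nrip1 (0.60, edgeR adjusted p = 0.012) rose. The call for Ncoa2 was lost without control replicate 1 or 2 or Pea3 TKO replicate 1 or 2 (edgeR adjusted p = 0.059, 0.058, 0.082 and 0.10). Cyp1b1, which can also oxidise retinoids, had a log2 fold change of -0.06 (edgeR adjusted p = 0.86). Cyp26c1 had 0 counts in all 6 samples.

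With the Y-linked covariate 5 of the 26 genes were called, and in the libraries with Y-linked reads alone 4 were called. Rdh10 lost its call in both, at log2 fold changes of 0.92 and 0.93 (edgeR adjusted p = 0.061 and 0.053), as did Nrip1 at 0.54 and 0.55 (edgeR adjusted p = 0.17 and 0.13). Adh1 lost it at lower values, 2.22 and 2.21 (edgeR adjusted p = 0.13 and 0.19), and so did Ncoa2, at 0.45 and 0.48 (edgeR adjusted p = 0.38 and 0.40). Aldh1a7 lost it in the second fit alone, at 2.36 (edgeR adjusted p = 0.067). Each of the 2 counts includes 1 gene that was not called in all 6 samples without the covariate.

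**Figure D3:**
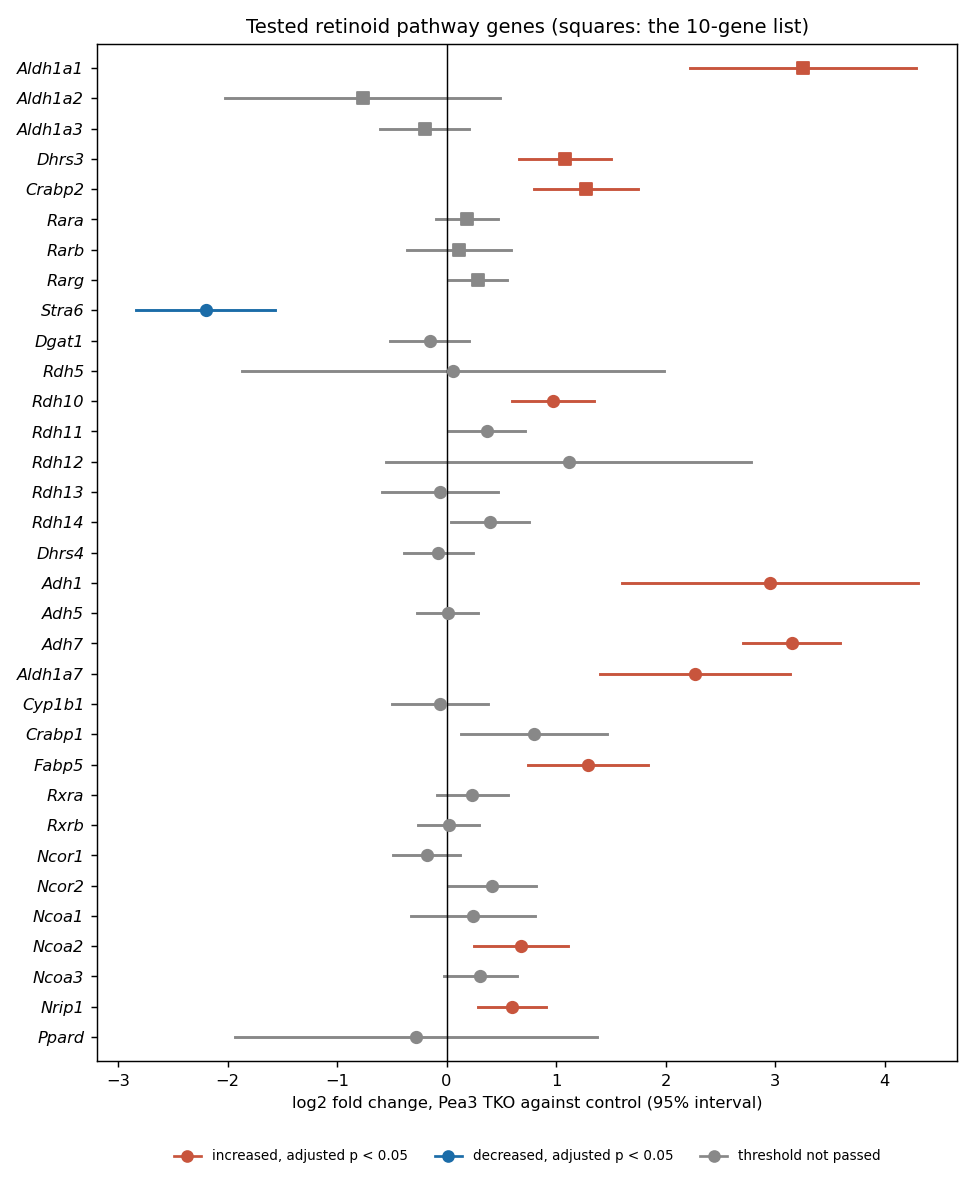
Log2 fold change of Pea3 TKO against control (horizontal axis) with its 95% interval for the 8 tested genes of the 10 (squares) and 25 of the 26 other tested retinoid genes (circles), coloured by call at an adjusted p of 0.05. Stra6 is the single decrease, at -2.20, and Aldh1a1, Adh7, Adh1 and Aldh1a7 lie above 2.

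A further list held 24 genes known to respond to retinoic acid in embryos or cell lines, of which 12 were tested. Of the 12, 4 rose, 2 fell and 6 did not pass the test, with a median log2 fold change of 0.60, where 13.6% of all tested genes rose and 11.3% fell. Nr2f2, a nuclear receptor gene (COUP-TFII), rose from 26.7 ± 6.77 to 89.9 ± 15.7 CPM (log2 fold change 1.75, SE 0.21, edgeR adjusted p = 0.00053). Zfp703, a zinc finger repressor, rose from 15.5 ± 1.75 to 38.0 ± 6.45 CPM (1.29, SE 0.20, edgeR adjusted p = 0.0018). The homeobox gene Meis1 rose by 0.54 on the log2 scale (edgeR adjusted p = 0.01).

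Tgm2, a transglutaminase induced by retinoic acid in many cells, was at 4.57, 9.47 and 10.3 CPM in control and 2.48, 2.94 and 1.88 CPM in Pea3 TKO (log2 fold change -1.74, SE 0.45, edgeR adjusted p = 0.021). Foxc2, a forkhead gene of the periocular mesenchyme, fell from 116.9 ± 15.04 to 68.9 ± 10.9 CPM (log2 fold change -0.76, SE 0.15, edgeR adjusted p = 0.0069). Hoxb1 had 1, 0 and 0 counts in control and 14, 7 and 0 counts in Pea3 TKO and was not tested, and the list's other Hox genes and Cdx1 had 0 counts in every sample. The tested genes of the list thus moved in both directions. Genes on the other strand overlap exons of Tgm2, Nr2f2, Zfp703 and Meis1. The use of strand in counting is not given, so reads from the shared stretches cannot be told apart. Gm37818, on the same strand as Meis1, also shares 1029 exon bases with it, and strand would not separate those reads. The call for Tgm2 was lost without control replicate 2 or 3 or Pea3 TKO replicate 1 or 3 (edgeR adjusted p = 0.079, 0.089, 0.052 and 0.054), and that for Meis1 without control replicate 3 (0.053). With the Y-linked covariate 3 of the 6 calls were left, and in the libraries with Y-linked reads alone 1 was left, Nr2f2. Tgm2 was then at -2.15 and -2.10 (edgeR adjusted p = 0.14 in both) and Foxc2 at -0.88 and -0.85 (edgeR adjusted p = 0.069 and 0.068), sizes no smaller than in all 6 samples, while Meis1 was at 0.39 and 0.41 (edgeR adjusted p = 0.21 and 0.17).

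**Figure D4:**
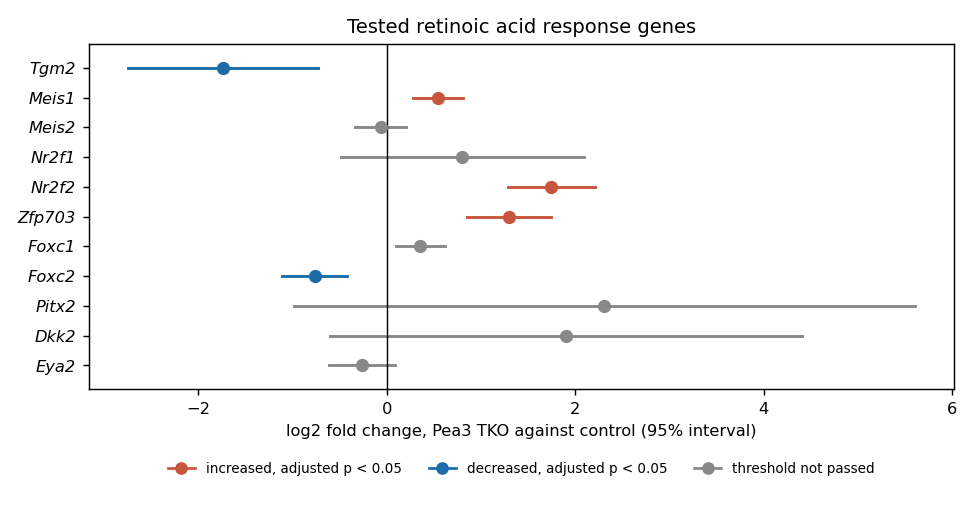
Log2 fold change of Pea3 TKO against control (horizontal axis) with its 95% interval for 11 of the 12 tested genes of the retinoic acid response list, coloured by call at an adjusted p of 0.05. Nr2f2, Zfp703 and Meis1 lie to the right and Tgm2 and Foxc2 to the left of 0.

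Most ocular surface and epidermis markers, and most epithelium markers, moved with the genes that rose. The summed level of 10 ocular surface and epidermis markers was 2319, 1250 and 1167 CPM in control and 8488, 7587 and 6273 CPM in Pea3 TKO. Of these 10, 9 rose, all but Trp63 (log2 fold change -0.04), against 13.6% of all tested genes. The study had already reported higher keratin transcripts in these mutants, and ectopic Krt5, Krt14 and Sfn. The count for this list is therefore not independent of earlier results. The summed level of 9 epithelium markers was between 3322 and 4150 CPM in control and between 5877 and 6953 in Pea3 TKO. Of these 9, 7 rose, among them Cdh1 (2.14-fold) and Pax6 (2.15-fold), against 13.6% of all tested genes. The study uses Pax6 and E-cadherin, the product of Cdh1, to mark lacrimal gland progenitor cells, so their rise is not that of another cell state. Epcam (log2 fold change -0.17, edgeR adjusted p = 0.31) and Grhl2 (0.19, edgeR adjusted p = 0.30) did not pass the test. Krt5, a keratin of basal stratified epithelium, was at 363.4, 144.7 and 83.2 CPM in control and 1854, 1531 and 1506 in Pea3 TKO. Aldh1a1, Crabp2, Adh1 and Aldh1a7 had the same order of control samples as Krt5, with replicate 1 highest and replicate 3 lowest. Other genes that rose did not, and Dhrs3, Adh7 and Fabp5 were highest in control replicate 2 and Rdh10 in control replicate 3. Of the other ocular surface and epidermis markers, Krt4, Krt15, Sfn, Perp and Dsp had the order of Krt5. Krt14 was lowest in control replicate 2 (73.2 CPM) and Trp63 highest in control replicate 3 (220.8 CPM), while Krt12 and Krt13 had few counts in control. The part of either group of markers in the rise of the 3 genes was not tested.

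Of 14 tested periocular mesenchyme markers, 3 rose (Lum, Dcn and Osr2), against 13.6% of all tested genes, and the groups overlapped for Lum and Dcn. The sums were between 544.1 and 562.1 CPM in control and 1186, 1317 and 666.5 CPM in Pea3 TKO, and Tcf21 was at 0 throughout. The part of mesenchyme in the results was not tested. Osr2 and Foxc1, at 157.3 CPM or more in every sample, made up most of the control sums. Of 10 retina and pigment epithelium markers, Rpe65, Rax, Six6 and Otx2 were at 0 counts in all samples, and the summed level of that list was between 37.9 and 55.8 CPM in control and between 14.7 and 24.0 in Pea3 TKO. Most of that sum was Rlbp1, a retinaldehyde-binding protein gene, which fell from 44.7 ± 9.63 to 13.9 ± 5.55 CPM (log2 fold change -1.68, edgeR adjusted p = 0.0034). Lens markers summed to between 149.8 and 975.4 CPM in control and between 179.5 and 327.9 in Pea3 TKO.

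**Figure D5:**
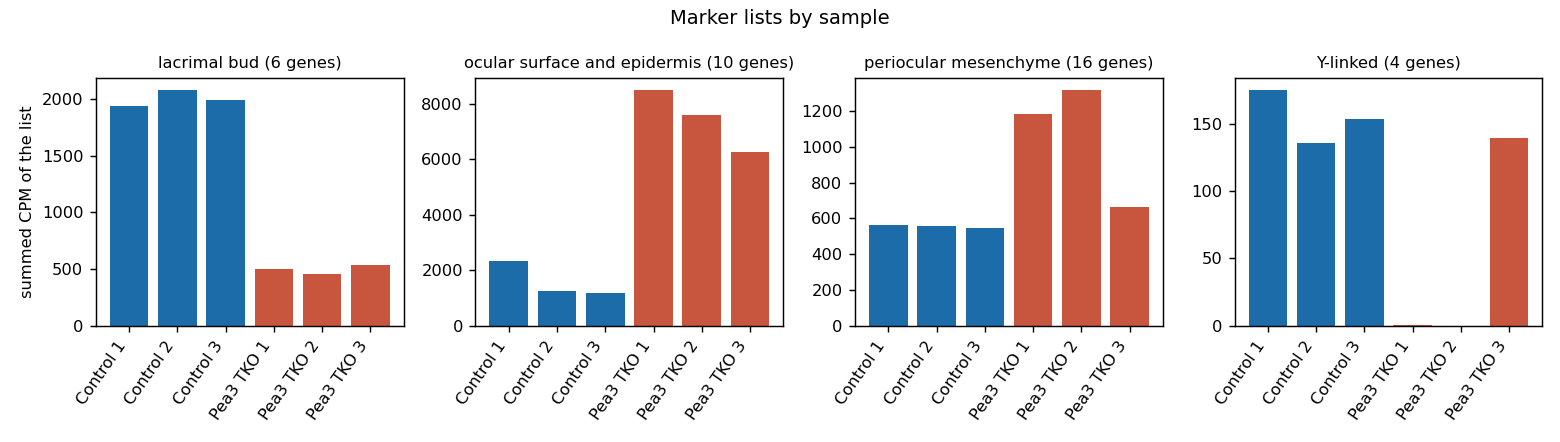
Summed CPM (vertical axes, each from 0) of 4 marker lists in each of the 6 samples, control in blue and Pea3 TKO in red. The lacrimal bud sum is lower and the ocular surface and epidermis sum higher in every Pea3 TKO sample, while the Y-linked sum is near 0 in Pea3 TKO replicates 1 and 2 alone.

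The genes whose log2(CPM + 1) followed each called gene most closely over the 6 samples were Hes1, Palm3 and Tapbp for Aldh1a1 (Pearson r of 0.998 or more), Upk3bl, Hebp2 and Tgm1 for Crabp2 (0.998 for each) and Manba, Cd81 and Trappc6a for Dhrs3 (0.996 or more). These values describe 6 samples in 2 groups, and any gene that differs between the groups tends to a high value.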

How the data were processed

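RNA from laser-captured E14.5 lacrimal gland epithelium was amplified (Nugen Ovation) and sequenced as 100 base reads, without molecular identifiers. The authors deposited 1 table of raw read counts per gene symbol for each of the 6 samples. The submitters' processing notes name bcl2fastq 2.17, STAR 2.5.2b, featureCounts 1.5.0-p3, DESeq and the build mm10. The annotation and the use of strand are not given in the sources used here.

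Groups came from the labels. Counts were filtered with filterByExpr (13087 of 23420 symbols kept), scaled by TMM and tested with edgeR 4.0.16 (R 4.3.3) by its quasi-likelihood test, Benjamini-Hochberg adjusted over all tested genes. Pea3 TKO was compared with control with no covariate. Exonic lengths and positions came from GENCODE M21 by symbol (94.1% of tested genes had a length). Alternatives were DESeq2 1.42.0, other scalings and filters, the replicate number as a block, a Y-linked covariate and leaving out each sample. The fit in the libraries with Y-linked reads was chosen after seeing the data. Scripts were tested on simulated counts.

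The 10 genes and all lists were chosen with earlier results of these data known. Named are the 10 genes, targeted genes, core pathway genes, every other listed pathway or response gene with an adjusted p under 0.05, moving markers, and the 3 genes most correlated with each called gene. A few genes of the lists enter the counts but are not reported here. Other genes named were chosen after their values were seen. Floors of 3 counts cover counting error only.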

Additional observations from a re-analysis of the deposited data

How the results depend on the processing

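Of the 3 calls among the 10 genes, all 3 were made under every alternative of tool, scaling, filter and block and without each sample in turn. Only the fits that treat Y-linked reads changed this. With the Y-linked covariate, calls numbered 1 against 3 among the 10 genes, 5 against 8 among pathway genes, 3 against 6 among response genes and 778 against 3268 over all genes. In the libraries with Y-linked reads alone, which leave 1 Pea3 TKO sample, these counts were 1, 4, 1 and 597. Fewer samples or degrees of freedom are part of both fits, and no other cause was tested. The direction turned for Aldh1a3 (0.19 in both) and for Rarb (from -0.023 without Pea3 TKO replicate 1 to 0.32 without control replicate 1). Leaving out 1 sample gave 1948 to 3344 genes, with 1963 without control replicate 2, 1948 without control replicate 3 and 2072 without Pea3 TKO replicate 2. Same-numbered samples deviated together with r = 0.14, -0.06 and 0.05, and samples of different number with r from -0.13 to 0.12. With 3 samples per group these values cannot tell whether same-numbered samples share more than a number. The replicate block gave 3191 genes and 3, 8 and 6 calls in the lists. Without dividing by length, the control shares were 1.298% for Aldh1a2, 97.6% for Aldh1a3 and 40.05% for Rarg, and the Pea3 TKO share of Rarb was 17.0%. Depth limits Cyp26a1 and Cyp26b1.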

Other observations

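Aldehyde dehydrogenases other than Aldh1a1, Aldh1a2 and Aldh1a3 were looked at by symbol after their values were seen. Of 15 tested genes, 5 rose, 4 fell and 6 did not pass the test, with 25.0% of all genes called. Aldh1a7, given above with the pathway genes, is among the 5 that rose. Aldh3a1, the abundant aldehyde dehydrogenase of the cornea, was at 0.338, 0 and 0.130 CPM in control and 3.37, 19.9 and 25.4 CPM in Pea3 TKO (edgeR adjusted p = 0.0014), and its groups did not overlap. Aldh3b2, at 13.4, 1.18 and 0.715 CPM in control and 62.9, 42.0 and 29.4 in Pea3 TKO, also rose (edgeR adjusted p = 0.025). Aldh1l2, the mitochondrial enzyme of folate metabolism, fell from 6.64 ± 1.41 to 0.634 ± 0.442 CPM (edgeR adjusted p = 0.0043), and the mitochondrial Aldh2 fell from 283.5 ± 17.9 to 189.8 ± 4.83 CPM (edgeR adjusted p = 0.0043).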
